A study of Mus musculus with 24 samples.

Results

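The genes described here are 47 mouse genes whose products bring newly made secretory and membrane proteins into the endoplasmic reticulum (ER), attach N-linked glycans to them and pass them on in coated vesicles. They were chosen by symbol as a named list in 8 groups: the Sec61 channel with its partners, the translocon-associated protein (TRAP) complex, the signal recognition particle (SRP) with its receptor, signal peptidase, oligosaccharyltransferase, the COPII coat, cargo receptors, and the COPI coat with the GTPase Arf4. All 47 were found among the 23234 genes of each of the deposited tables, and all 47 reached 1 FPKM in 3 or more libraries of both tables, which was the filter on low values. FPKM counts fragments per length of transcript and per number of mapped fragments, so levels can be compared between genes within a library.

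Gene expression had been measured by strand-specific RNA-seq in primary B cells taken directly from the spleens of C57BL/6 mice. The libraries used here fall into 4 groups of 3: Tet2/Tet3-deficient and control CD93-negative B cells, and Tet2/Tet3-deficient and control CD93-positive B cells. Tet2 and Tet3 are enzymes that convert methylated cytosine in DNA to hydroxymethylcytosine and further oxidised forms, and CD93 is a surface protein carried in the spleen by transitional B cells, among others. The titles call the deficient mice Tet DKO in the CD93-negative set and Tet KO in the CD93-positive set, with 1 genotype label for both; they are called deficient below. The alleles, the driver of any deletion and the age of the mice are not given in the sources used here. Whether each library came from its own mouse is not given either. The p-values rest on the spread between these libraries, pooled in part over genes by the test. That spread may be technical. The labels list 24 samples in 8 groups, and the other 12 samples, sorted on CD23 and CD21, were left aside.

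Proteins bound for secretion or the cell surface are recognised by SRP as they leave the ribosome, handed to the SRP receptor on the ER membrane and threaded through the Sec61 channel. Signal peptidase then trims the signal peptide, and oligosaccharyltransferase transfers a preassembled glycan to asparagine residues. COPII vesicles carry finished cargo towards the Golgi, receptors select that cargo, and COPI vesicles return material to the ER. B lymphocytes expand this machinery when they become antibody-secreting plasma cells, a step in which the transcription factor Xbp1 acts.

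Summed FPKM was 424032 to 463987 in Tet2/Tet3-deficient and 342368 to 394709 in control CD93-negative libraries. In CD93-positive cells it was 597968, 583580 and 309359 in Tet2/Tet3-deficient replicates 1 to 3, against 523898 to 595984 in the control libraries, so that deficient replicate 3 stood apart. The tests were therefore also run after all libraries of a table were brought to the same upper quartile of the tested genes, and such values are called rescaled; any value not so called has the authors' scaling. Rescaling moved the log2 changes of all 47 members down in CD93-negative cells, by -0.22 to -0.17, and up in CD93-positive cells, by 0.18 to 0.25. A CD93-negative change with the authors' scaling and a rescaled CD93-positive change are thus each the higher of the 2 values. Where they stand together below, their sizes are not like for like. The median log2 change of all tested genes was 0.11 in CD93-negative cells, or -0.08 rescaled, and -0.22 in CD93-positive cells, or -0.01 rescaled. By Xist and Ddx3y, none of the CD93-negative libraries was from a female, while 3 of 3 Tet2/Tet3-deficient and 1 of 3 control CD93-positive libraries were. Cd79a, a subunit of the B cell receptor complex, averaged 955 ± 32.6 FPKM in Tet2/Tet3-deficient and 965 ± 108 FPKM in control CD93-negative cells, and 956 ± 337 FPKM in deficient and 1396 ± 195 FPKM in control CD93-positive cells (SD, n = 3 each). Cd93 stood at 3.32 to 3.85 FPKM in Tet2/Tet3-deficient and 3.88 to 4.65 FPKM in control CD93-negative libraries, and at 28.0 to 50.5 FPKM in deficient and 50.9 to 59.9 FPKM in control CD93-positive libraries. Tet3 was detected in all libraries, at 14.9 to 15.7 FPKM in Tet2/Tet3-deficient and 14.8 to 20.1 FPKM in control CD93-negative cells, and at 3.84 to 9.92 FPKM in deficient and 12.1 to 14.1 FPKM in control CD93-positive cells. Tet2 was at 8.15 to 9.94 FPKM in deficient and 6.36 to 8.79 FPKM in control CD93-negative cells, and at 1.80 to 3.55 FPKM in deficient and 3.10 to 3.47 FPKM in control CD93-positive cells. Reads from exons that a deletion leaves in place count toward a gene's FPKM, so these levels check neither deletion.

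Across the pathway, CD93-negative cells showed higher levels of most members in the Tet2/Tet3-deficient libraries. At a Benjamini-Hochberg adjusted p of 0.05 in limma, run over all tested genes, 29 of the 47 members (61.7%) were higher and 0 were lower. Among all 10960 genes tested in this comparison, 18.7% were higher and 2.79% were lower. At an unadjusted p of 0.05, 35 members were higher and 0 lower, against 27.6% of all tested genes higher and 5.61% lower. The median log2 change of the members was 0.49, with a range of 0.07 for Sec24b to 1.40 for Sec24d. In bulk RNA, more cells of a type that makes much of a transcript and more transcript per cell cannot be told apart.

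The rescaled CD93-negative values gave the same number, 29 members higher and 0 lower, of which 28 were shared with the fit to the authors' values. Srprb was lost and Magt1 was gained. Here 17.1% of all tested genes were higher and 23.8% lower, so the number of all genes called lower moved with the scaling, while 0 members were called lower under either. The median of the members was 0.28 rescaled, against -0.08 for all tested genes. At an unadjusted p of 0.05, 31 members were higher, against 20.5% of all tested genes, and 1, Sec24b, was lower, against 30.3%. Leaving out Tet2/Tet3-deficient replicate 2, or replicate 3, left 19 members higher in each case, against 29 with all libraries.

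In CD93-positive cells the authors' values gave 1 member higher, Sec24d, and 0 lower, against 1.67% of the 11250 tested genes higher and 1.54% lower. At an unadjusted p of 0.05, 6 members were higher and 0 lower, against 3.88% of all tested genes higher and 8.02% lower. Rescaled, 36 members (76.6%) were higher and 0 lower in limma, against 11.4% of all tested genes higher and 9.34% lower. Without Tet2/Tet3-deficient replicate 3 the authors' values gave 18 members higher, and rescaled values without it gave 33. A fit with sex as a covariate was added after the data were seen. With all deficient libraries female, its genotype effect is the difference from the 1 female control library. Fewer members were then called higher under both scalings, but no count is given, since the fit rests on 1 control library. The 3 rescaled Tet2/Tet3-deficient libraries, all female, lay above the 1 female control library for 42 members, below it for 4 (Sec63, Srp14, Sec24b and Sec24c) and on both sides of it for Sec11a, where 31.7% of all tested genes lay above that library and 36.0% below it.

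**Figure D1:**
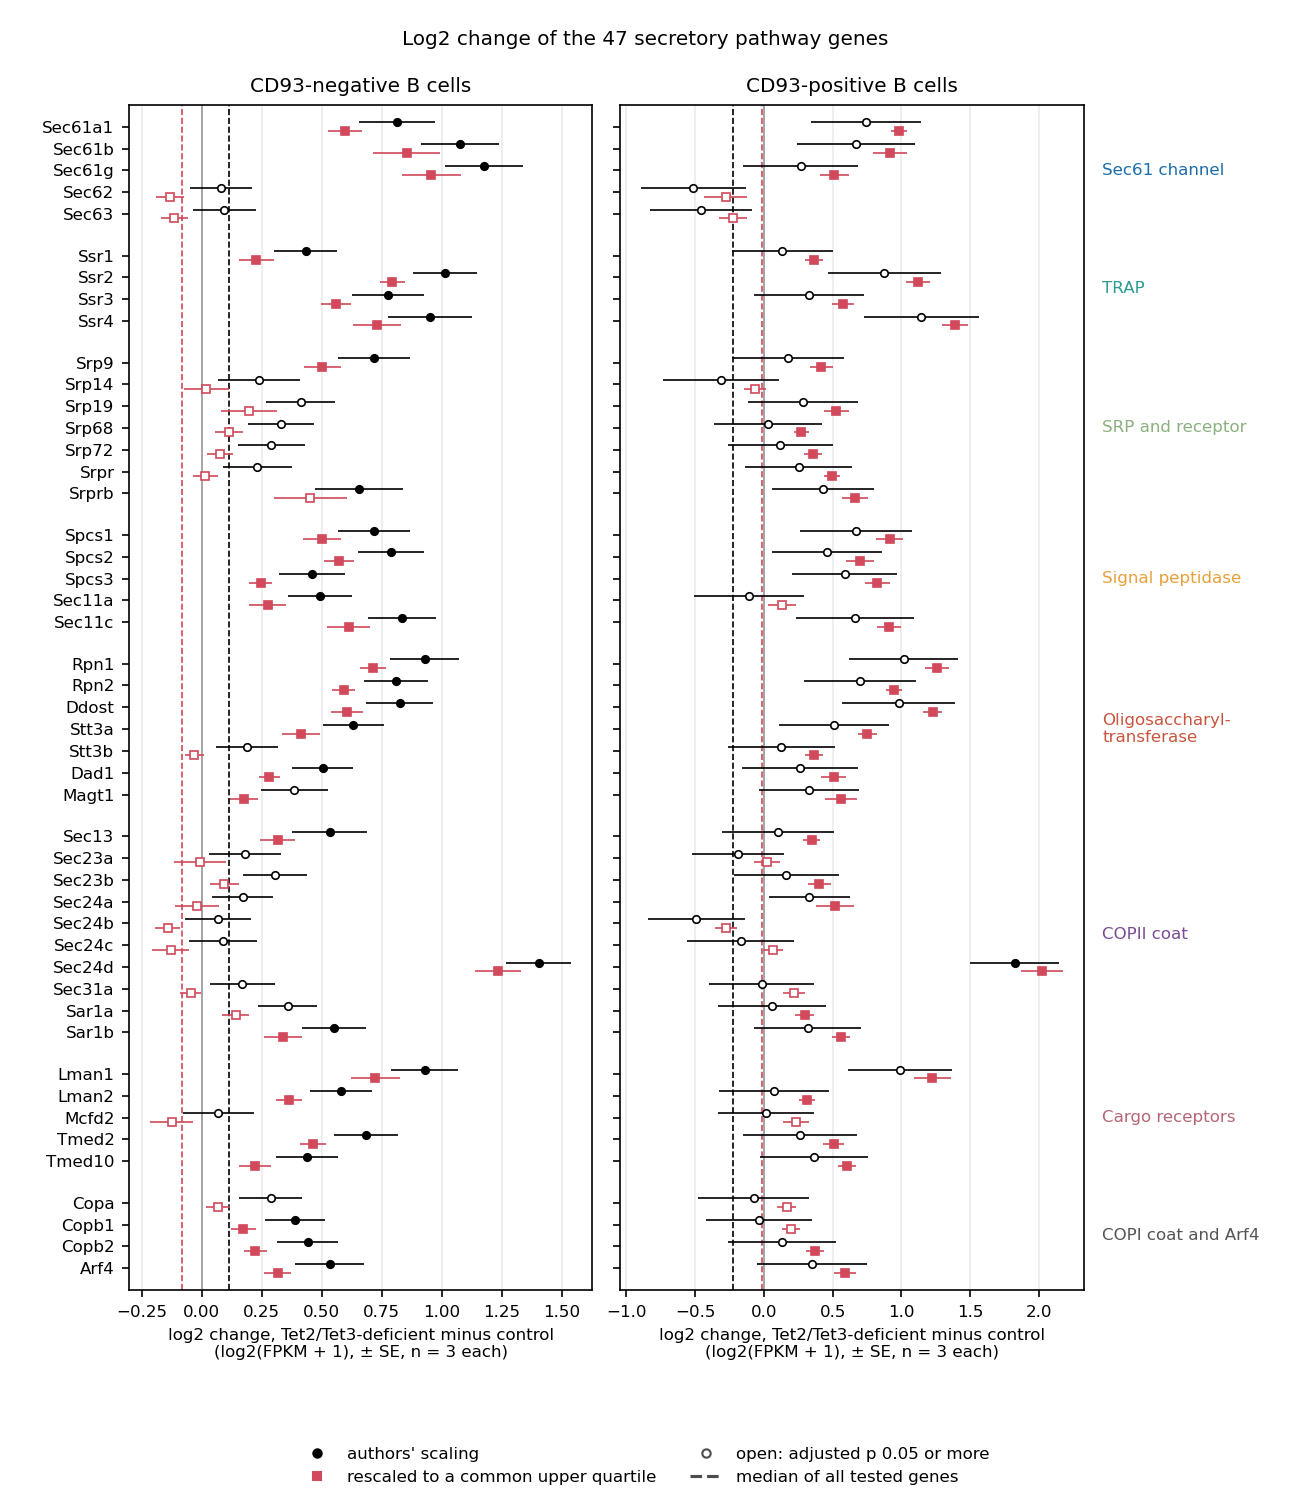
Log2 change, Tet2/Tet3-deficient minus control on the log2(FPKM + 1) scale, of the 47 genes in CD93-negative and CD93-positive B cells, with the authors' scaling (circles) and rescaled (squares); bars are standard errors, filled symbols passed an adjusted p of 0.05 and dashed lines are the medians of all tested genes. In CD93-negative cells 29 symbols are filled under either scaling, while in CD93-positive cells 1 circle and 36 squares are.

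Targeting by SRP and its receptor is the first step of the pathway. This group held 2 called members of 7 in CD93-negative cells, Srp9 and Srprb, 1 rescaled, Srp9, and 6 of 7 in rescaled CD93-positive cells. The shares of all tested genes called higher were 18.7%, 17.1% and 11.4%, so the rescaled CD93-negative count of this group was near that of all genes. Srp9, a subunit of the domain that slows translation, was at 35.7, 41.3 and 44.8 FPKM in Tet2/Tet3-deficient CD93-negative libraries, against 19.9, 26.1 and 27.1 FPKM in control libraries. The groups did not overlap, and the log2 change was 0.72 (SE 0.149, adjusted p = 0.00459). Srprb, the membrane anchor of the receptor, was at 15.0, 13.4 and 14.6 FPKM in Tet2/Tet3-deficient CD93-negative libraries, against 6.47, 8.42 and 12.1 FPKM in control libraries. Its log2 change was 0.66 (adjusted p = 0.0224), and 0.45 rescaled (adjusted p = 0.0512). Srp14, the partner of Srp9 in that domain, did not pass in either population: it was at 58.0, 62.6 and 65.9 FPKM in Tet2/Tet3-deficient CD93-negative libraries, against 39.8, 67.1 and 54.1 FPKM in control libraries, with overlap. Its rescaled log2 change was 0.02 in CD93-negative cells (adjusted p = 0.882) and -0.07 in CD93-positive cells (adjusted p = 0.589). Srp19, Srp68, Srp72 and the receptor subunit Srpr passed in rescaled CD93-positive cells and, under these 2 scalings with all libraries, in no other comparison, with log2 changes of 0.27 for Srp68 to 0.53 for Srp19; whether their change differed between the populations was not tested.

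The 3 subunits that form the Sec61 channel itself were higher in Tet2/Tet3-deficient CD93-negative cells. Sec61g, the small tail-anchored gamma subunit, was at 45.7, 55.4 and 69.0 FPKM in Tet2/Tet3-deficient CD93-negative libraries, against 21.0, 26.7 and 25.3 FPKM in control libraries, and the log2 change was 1.17 (SE 0.162, adjusted p = 0.000291). Sec61b, the beta subunit, was at 122, 119 and 154 FPKM in deficient libraries, against 58.4, 75.7 and 52.9 FPKM in control libraries, with a log2 change of 1.08 (SE 0.161, adjusted p = 0.000533). Sec61a1, which forms the pore, was at 64.4, 62.5 and 63.3 FPKM in deficient libraries, against 27.5, 42.8 and 38.4 FPKM in control libraries, with a log2 change of 0.81 (SE 0.158, adjusted p = 0.00306). All 3 channel genes separated the groups completely, as 31.5% of all tested genes did in the same direction. Among all tested genes 18.7% were called higher there. In CD93-positive cells the authors' values of these genes overlapped between groups, since Tet2/Tet3-deficient replicate 3 was low. Rescaled, Sec61a1 was at 85.0, 79.2 and 82.0 FPKM in Tet2/Tet3-deficient libraries, against 40.7, 40.1 and 42.0 FPKM in control libraries, with a log2 change of 0.98 (SE 0.0580, adjusted p = 0.000409). Rescaled Sec61b changed by 0.92 (adjusted p = 0.00573) and Sec61g by 0.51 (adjusted p = 0.0193).

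The partners Sec62 and Sec63, which serve mainly proteins that enter after their translation and help the channel open, did not pass in either population under either scaling. Sec62 was at 18.2, 20.01 and 20.4 FPKM in Tet2/Tet3-deficient CD93-negative libraries, against 16.4, 19.5 and 19.5 FPKM in control libraries (log2 change 0.08, adjusted p = 0.716). Sec63 was at 13.2, 13.5 and 14.8 FPKM in deficient libraries, against 11.3, 14.0 and 13.5 FPKM in control libraries (log2 change 0.09, adjusted p = 0.677). Both lay below the median change of all tested genes in both populations and under both scalings. In CD93-positive cells Sec63 was at 17.0, 15.1 and 10.1 FPKM in Tet2/Tet3-deficient libraries, all below the 18.2, 18.4 and 21.5 FPKM of control libraries, a log2 change of -0.46 (adjusted p = 0.663), and -0.23 rescaled (adjusted p = 0.154). Sec62 was at 25.2, 24.5 and 13.0 FPKM in deficient libraries, against 34.4, 29.7 and 23.9 FPKM in control libraries, with log2 changes of -0.51 (adjusted p = 0.628) and -0.28 rescaled (adjusted p = 0.243).

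All 4 TRAP subunits, which sit beside the Sec61 channel and help some proteins through it, were higher in Tet2/Tet3-deficient CD93-negative cells, against 18.7% of all tested genes. Ssr2 was at 51.0, 55.6 and 58.0 FPKM in Tet2/Tet3-deficient CD93-negative libraries, against 23.0, 28.7 and 28.7 FPKM in control libraries, with a log2 change of 1.01 (SE 0.133, adjusted p = 0.000204). Ssr4 was at 80.2, 75.8 and 84.8 FPKM in deficient libraries, against 29.7, 49.2 and 47.05 FPKM in control libraries, with a log2 change of 0.95 (SE 0.176, adjusted p = 0.00228). Ssr3 changed by 0.78 (adjusted p = 0.00306) and Ssr1 by 0.43 (adjusted p = 0.0333), so the 4 subunits of 1 complex spanned 0.43 to 1.01. In CD93-positive cells Ssr4 was at 266, 213 and 128 FPKM in Tet2/Tet3-deficient libraries, against 92.6, 72.6 and 98.0 FPKM in control libraries. All 3 deficient libraries lay above all 3 control libraries, with a log2 change of 1.14 (SE 0.420, adjusted p = 0.143), and 1.39 rescaled (SE 0.0953, adjusted p = 0.000641). Ssr4 lies on the X chromosome, and the deficient CD93-positive libraries were all female. Against the 1 female control library the rescaled Ssr4 ratio was 2.52. With sex as a covariate its rescaled log2 change was 1.32, which is the same comparison with 1 control library and not a second check. Rescaled Ssr2 changed by 1.12 (adjusted p = 0.000929), Ssr3 by 0.57 (adjusted p = 0.00614) and Ssr1 by 0.36 (adjusted p = 0.0139).

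**Figure D2:**
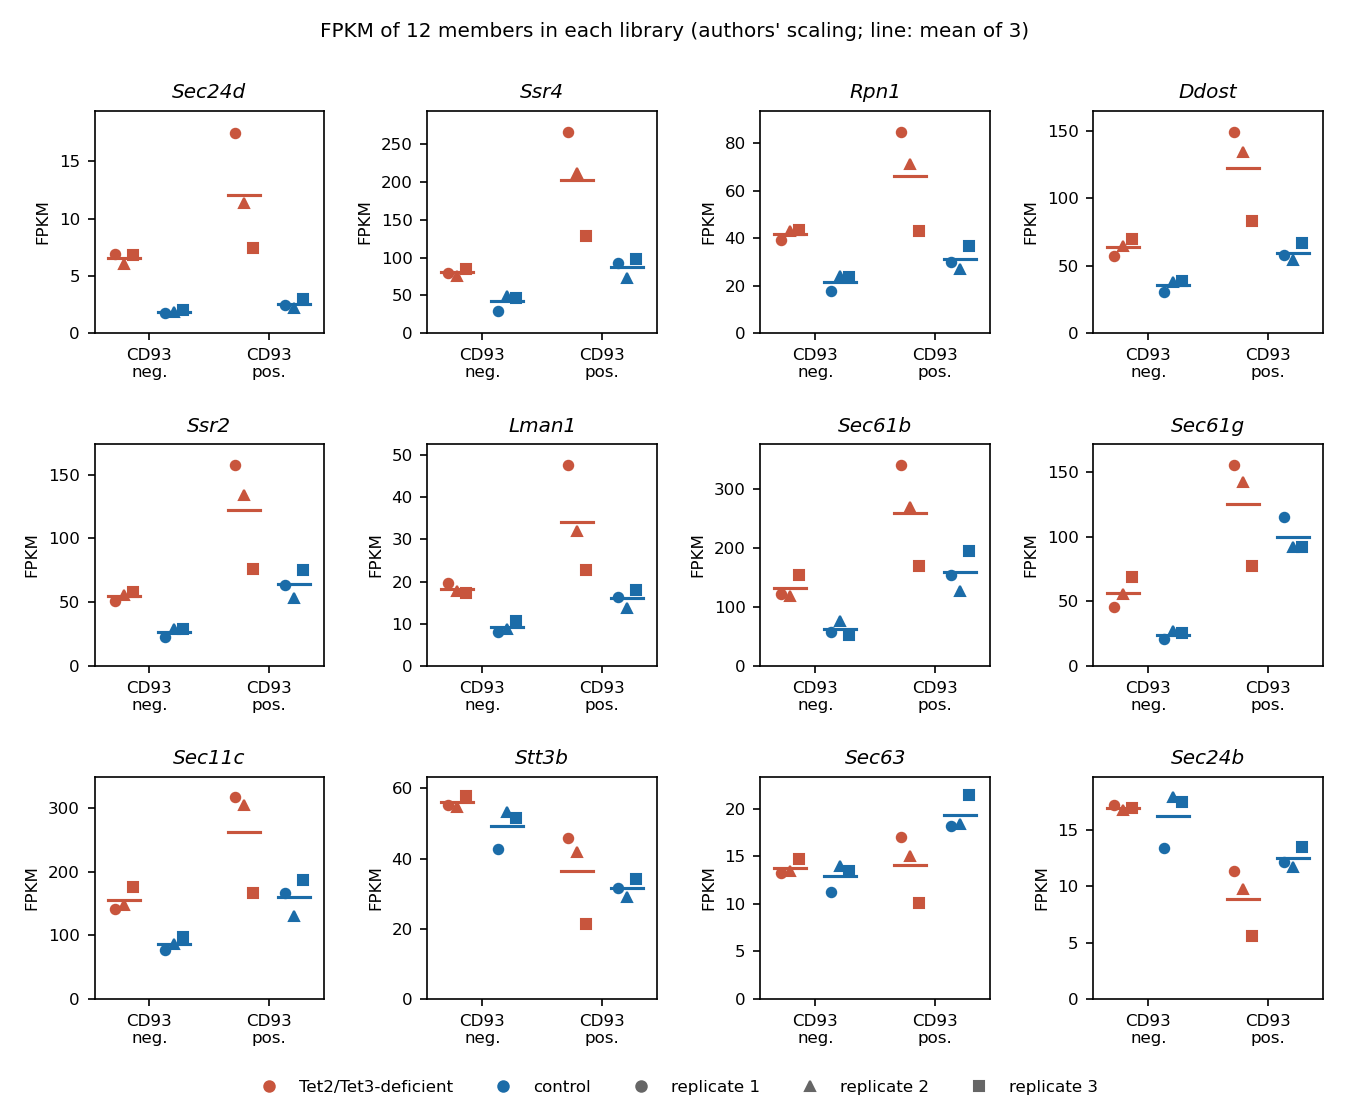
FPKM of 12 members in each library, with the authors' scaling; point shapes mark replicates and lines the means of 3, with Tet2/Tet3-deficient libraries left of control libraries in each population. Sec24d, Ssr4, Rpn1, Ddost, Ssr2 and Lman1 separate the groups in both populations, replicate 3 of the deficient CD93-positive libraries is the lowest of its group in all 12 panels, and Sec63 and Sec24b are lower in all 3 deficient CD93-positive libraries than in the control libraries.

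Signal peptidase was higher throughout in CD93-negative cells, with 5 of 5 subunits called under both scalings. Among all tested genes 18.7% were higher there, 17.1% rescaled, and 11.4% in rescaled CD93-positive cells. Sec11c, 1 of the catalytic subunits, had the highest mean of the members in all 4 groups. In CD93-positive cells it was level with Sec61b, at means of 263 and 260 FPKM in deficient and 161 and 159 FPKM in control libraries, with overlapping ranges. Sec11c was at 142, 147 and 177 FPKM in Tet2/Tet3-deficient CD93-negative libraries, against 76.5, 87.0 and 96.8 FPKM in control libraries. The log2 change was 0.83 (SE 0.142, adjusted p = 0.00128). Spcs2 changed by 0.79 (adjusted p = 0.00164), Spcs1 by 0.72 (adjusted p = 0.00443), the alternative catalytic subunit Sec11a by 0.49 (adjusted p = 0.0204) and Spcs3 by 0.46 (adjusted p = 0.0312). In rescaled CD93-positive values 4 of 5 were higher: Sec11c was at 274, 274 and 278 FPKM in Tet2/Tet3-deficient libraries, against 151, 129.7 and 160.2 FPKM in control libraries (log2 change 0.91, adjusted p = 0.00186). Sec11a was the exception, at 60.3, 65.5 and 59.5 FPKM in deficient libraries, against 50.8, 53.8 and 64.8 FPKM in control libraries, with overlapping groups and a rescaled log2 change of 0.13 (adjusted p = 0.380).

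Oligosaccharyltransferase, the enzyme of N-glycosylation, had 5 of 7 subunits higher in CD93-negative cells, 6 of 7 rescaled and 7 of 7 in rescaled CD93-positive cells. The shares of all tested genes were 18.7%, 17.1% and 11.4%. Rpn1, a structural subunit that holds substrates, was at 39.2, 43.01 and 43.5 FPKM in Tet2/Tet3-deficient CD93-negative libraries, against 17.6, 23.9 and 23.5 FPKM in control libraries. Its log2 change was 0.93 (SE 0.143, adjusted p = 0.000658). In CD93-positive cells Rpn1 was at 85.02, 71.3 and 43.1 FPKM in Tet2/Tet3-deficient libraries, against 30.1, 27.0 and 36.9 FPKM in control libraries, again without overlap, with a log2 change of 1.02 (SE 0.396, adjusted p = 0.188), and 1.26 rescaled (SE 0.0890, adjusted p = 0.000689). Ddost, another non-catalytic subunit, was at 57.0, 64.7 and 70.0 FPKM in Tet2/Tet3-deficient CD93-negative libraries, against 30.7, 38.1 and 38.3 FPKM in control libraries (log2 change 0.82, adjusted p = 0.00121). Rescaled Ddost changed by 1.23 in CD93-positive cells (adjusted p = 0.000409). Rpn2 changed by 0.81 in CD93-negative cells (adjusted p = 0.00109) and by 0.94 rescaled in CD93-positive cells (adjusted p = 0.000441), and Dad1 by 0.50 (adjusted p = 0.0143) and 0.51 rescaled (adjusted p = 0.0130). Rescaled in CD93-negative cells, Rpn2 changed by 0.59 (adjusted p = 0.000193) and Dad1 by 0.28 (adjusted p = 0.00270).

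Of the catalytic subunits, Stt3a passed in CD93-negative cells and Stt3b did not. Stt3a, which works with the translocon on entering chains, was at 49.3, 48.1 and 51.8 FPKM in Tet2/Tet3-deficient CD93-negative libraries, against 29.1, 31.1 and 35.2 FPKM in control libraries (log2 change 0.63, SE 0.126, adjusted p = 0.00353). Stt3b, which can glycosylate sites that were skipped, was at 55.4, 54.8 and 57.8 FPKM in deficient libraries, against 42.8, 53.3 and 51.6 FPKM in control libraries (log2 change 0.19, adjusted p = 0.354), and its rescaled log2 change was -0.03 (adjusted p = 0.552). Magt1, the oxidoreductase partner of Stt3b, changed by 0.39 (adjusted p = 0.0710), and by 0.18 rescaled (adjusted p = 0.0482). In rescaled CD93-positive values Stt3a changed by 0.75 (adjusted p = 0.00162), Stt3b by 0.36 (adjusted p = 0.0125) and Magt1 by 0.56 (adjusted p = 0.0216). Magt1 also lies on the X chromosome. With sex as a covariate its rescaled log2 change was 0.58 and did not pass, in a fit that rests on the 1 female control library.

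The COPII coat held the member with the largest change in both populations, beside members that did not pass in either. Sec24d, 1 of 4 alternative Sec24 subunits that pick cargo for the vesicle, was at 6.89, 6.06 and 6.81 FPKM in Tet2/Tet3-deficient CD93-negative libraries, against 1.74, 1.83 and 2.03 FPKM in control libraries. The ratio of means was 3.53 and the log2 change 1.40 (SE 0.136, adjusted p = 1.81e-05). In CD93-positive cells it was at 17.5, 11.3 and 7.46 FPKM in Tet2/Tet3-deficient libraries, against 2.46, 2.16 and 2.999 FPKM in control libraries. The ratio was 4.77 and the log2 change 1.82 (SE 0.325, adjusted p = 2.40e-06), and the groups were apart in both populations. Rescaled, the log2 change was 2.02 (SE 0.150, adjusted p = 0.000834) in CD93-positive cells and 1.23 (SE 0.0961, adjusted p = 0.000160) in CD93-negative cells. The test pools spread over genes, so these adjusted p-values do not rank the authors' scaling above the rescaled values, which had the smaller SE. Over the alternatives the CD93-positive adjusted p of Sec24d ran up to 0.130. The call was lost without a filter on low values. It was also lost with sex as a covariate on the authors' values, in a fit that rests on 1 female control library.

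The other Sec24 genes gave no call in CD93-negative cells under either scaling. Sec24b was at 17.2, 16.8 and 16.9 FPKM in Tet2/Tet3-deficient CD93-negative libraries, against 13.4, 18.0 and 17.5 FPKM in control libraries (log2 change 0.07, adjusted p = 0.784), and at 11.4, 9.72 and 5.60 FPKM in deficient and 12.2, 11.7 and 13.5 FPKM in control CD93-positive libraries. In that population the deficient libraries all lay below the control libraries, with a log2 change of -0.49 (adjusted p = 0.614), and -0.27 rescaled (SE 0.0793, adjusted p = 0.0541). Sec24c, the most abundant of the 4, changed by 0.09 in CD93-negative cells (adjusted p = 0.722), or -0.13 rescaled (adjusted p = 0.208). Its rescaled change in CD93-positive cells was 0.07 (adjusted p = 0.536). Sec24a, at 5.75 to 6.28 FPKM in Tet2/Tet3-deficient and 5.11 to 5.43 FPKM in control CD93-negative libraries, passed in rescaled CD93-positive values (log2 change 0.52, adjusted p = 0.0411).

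Of the other COPII members, the outer coat subunit Sec13 and the GTPase Sar1b, which starts coat assembly, passed in CD93-negative cells. Sec13 was at 39.6, 45.8 and 46.3 FPKM in Tet2/Tet3-deficient CD93-negative libraries, against 23.6, 33.6 and 33.8 FPKM in control libraries (log2 change 0.53, adjusted p = 0.0279). Sar1b was at 21.9, 26.8 and 24.7 FPKM in deficient libraries, against 14.9, 17.7 and 16.4 FPKM in control libraries (log2 change 0.55, adjusted p = 0.0104). Both also passed in rescaled CD93-positive values, at 0.35 (adjusted p = 0.0131) and 0.56 (adjusted p = 0.00371). Sec31a, the partner of Sec13 in the outer cage, changed by 0.17 in CD93-negative cells (adjusted p = 0.429) and by 0.22 rescaled in CD93-positive cells (adjusted p = 0.0957). Sec23a, an inner coat subunit, was at 5.09 to 6.52 FPKM in Tet2/Tet3-deficient and 4.36 to 5.79 FPKM in control CD93-negative libraries and passed nowhere, while its paralog Sec23b (log2 change 0.40, adjusted p = 0.0211) and Sar1a (0.30, adjusted p = 0.0294) passed in rescaled CD93-positive values.

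A paralog's share of the summed FPKM of its family is fixed within a library and does not depend on how that library was scaled. The shares are given as descriptions, without a test. Sec24d made up 8.85%, 7.92% and 9.59% of the Sec24 sum in Tet2/Tet3-deficient CD93-negative libraries, against 3.10%, 2.50% and 2.91% in control libraries. In CD93-positive cells it made up 24.1%, 18.0% and 21.2% in deficient libraries, against 4.80%, 4.65% and 5.02% in control libraries. The deficient shares were the higher in every library, replicate 3 of the deficient CD93-positive cells included. Sec24b held a mean of 22.7% in deficient and 24.5% in control CD93-negative libraries, and 15.7% in deficient and 23.9% in control CD93-positive libraries. Sec24c held 60.5% in deficient and 64.6% in control CD93-negative libraries, and 56.1% in deficient and 65.9% in control CD93-positive libraries. Both held the lower share in deficient cells without overlap. Shares of a family have a fixed total, so a higher Sec24d share by itself lowers the others. Mean FPKM in deficient and control CD93-negative cells was 17.0 and 16.3 for Sec24b and 45.5 and 42.9 for Sec24c. In CD93-positive cells it was 8.90 and 12.5 for Sec24b and 31.9 and 34.6 for Sec24c.

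The same separation was seen in other paralog families. Sec11c held 79.6% ± 1.23 of the Sec11 sum in Tet2/Tet3-deficient and 75.6% ± 0.437 in control CD93-negative cells, and 81.7% ± 0.867 in deficient and 72.2% ± 2.24 in control CD93-positive cells (SD, n = 3 each). Stt3a held 47.02% ± 0.250 of the Stt3 sum in Tet2/Tet3-deficient and 39.3% ± 2.11 in control CD93-negative cells, and 65.4% ± 0.641 in deficient and 59.1% ± 0.581 in control CD93-positive cells. Sar1b held 42.9% ± 2.34 of the Sar1 sum in deficient and 39.4% ± 0.161 in control CD93-negative cells, and 49.1% ± 1.94 in deficient and 44.5% ± 0.690 in control CD93-positive cells. In each of these families the shares of the groups did not overlap in either population. Each is a pair in which either share is the complement of the other, so a pair counts once. How often other paralog families separate in this way was not worked out. The groups overlapped for the Sec23 pair and for Sec24a in CD93-negative cells; in CD93-positive cells Sec23b held 82.1% ± 1.03 in Tet2/Tet3-deficient and 77.7% ± 2.07 in control libraries.

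**Figure D3:**
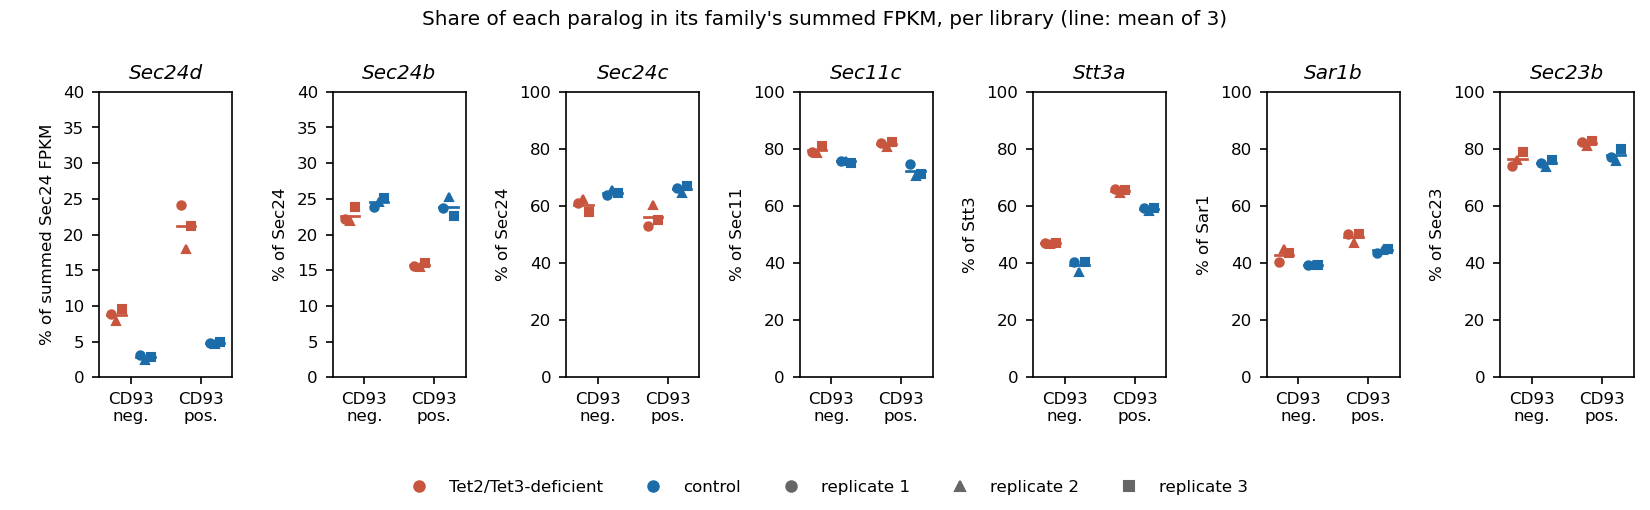
Share of each paralog in the summed FPKM of its family, in percent per library, with Tet2/Tet3-deficient libraries left of control libraries in each population and lines at the means of 3. Sec24d lies at 7.92% to 24.1% in the deficient libraries and 2.50% to 5.02% in the control libraries, while Sec24b and Sec24c lie lower in the deficient libraries of both populations. Shares of a family have a fixed total, so a higher Sec24d share by itself lowers the others.

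Among cargo receptors, Lman1 and Lman2 are lectins that bind glycans of cargo, Mcfd2 is the partner of Lman1, and Tmed2 and Tmed10 are p24 proteins that cycle between ER and Golgi. Lman1 was at 19.8, 17.9 and 17.4 FPKM in Tet2/Tet3-deficient CD93-negative libraries, against 7.98, 8.86 and 10.8 FPKM in control libraries, with a ratio of 1.99 and a log2 change of 0.93 (SE 0.139, adjusted p = 0.000531). In CD93-positive cells it was at 47.6, 32.1 and 22.8 FPKM in Tet2/Tet3-deficient libraries, against 16.4, 13.8 and 18.1 FPKM in control libraries. The groups were apart, with a log2 change of 0.99 (adjusted p = 0.176), and 1.22 rescaled (SE 0.136, adjusted p = 0.00301). Mcfd2 did not pass in either population: it was at 7.89, 7.70 and 6.92 FPKM in Tet2/Tet3-deficient CD93-negative libraries, against 6.01, 8.52 and 6.93 FPKM in control libraries (log2 change 0.07, adjusted p = 0.793), and changed by 0.23 rescaled in CD93-positive cells (adjusted p = 0.130). Tmed2 changed by 0.68 (adjusted p = 0.00311), Lman2 by 0.58 (adjusted p = 0.00674) and Tmed10 by 0.44 (adjusted p = 0.0309) in CD93-negative cells. Rescaled in CD93-positive cells, these 3 changed by 0.51 (Tmed2, adjusted p = 0.00760), 0.32 (Lman2, adjusted p = 0.0147) and 0.60 (Tmed10, adjusted p = 0.00287).

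The COPI group held 3 called members of 4 in CD93-negative cells under both scalings and 2 of 4 in rescaled CD93-positive cells. Among all tested genes 18.7% were higher in CD93-negative cells, 17.1% rescaled, and 11.4% in rescaled CD93-positive cells. Arf4, a GTPase of the early secretory pathway, was at 41.7, 43.9 and 41.2 FPKM in Tet2/Tet3-deficient CD93-negative libraries, against 23.7, 33.9 and 29.9 FPKM in control libraries (log2 change 0.53, adjusted p = 0.0197), and changed by 0.59 rescaled in CD93-positive cells (adjusted p = 0.00587). Of the coat subunits, Copb2 changed by 0.44 (adjusted p = 0.0274) and Copb1 by 0.39 (adjusted p = 0.0447) in CD93-negative cells. Rescaled CD93-positive values were 0.37 for Copb2 (adjusted p = 0.0134) and 0.20 for Copb1 (adjusted p = 0.0737). Copa, the largest coat subunit, passed in neither population. It changed by 0.29 in CD93-negative cells (adjusted p = 0.144), or 0.07 rescaled (adjusted p = 0.316), and by 0.17 rescaled in CD93-positive cells (adjusted p = 0.131).

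Promoters were read because Xbp1, whose transcript is described below, is known to bind the letters TGACGTGG, the core of the unfolded protein response element. RefSeq windows of 300 bases, 250 before and 50 after the annotated start, were at hand for 39 of the 47 members on build GRCm38.p6, which is not the build named for the deposited values. None was at hand for Sec61a1, Ssr2, Srp19, Srp68, Spcs3, Sec11c, Lman1 and Tmed2. Those letters, on either strand, stood in the windows of 4 of the 39 members (10.3%), against 193 of 27025 RefSeq genes with a window (0.714%). Those genes were not limited to the tested genes, while all members were tested, so the shares are not like for like. The 4 were Sec24d, Sec23a, Copb1 and Copb2, of which Sec23a passed in neither population under either scaling. Copb1 lost its CD93-negative call in 7 of 15 alternative runs. The windows are printed below for these 4, from 250 bases before the start to 20 after it, 5′ to 3′ on the strand of the gene, with the match in capitals; CCACGTCA is the same match read on the other strand.
Sec24d, chr3:123267246-123267515, + strand: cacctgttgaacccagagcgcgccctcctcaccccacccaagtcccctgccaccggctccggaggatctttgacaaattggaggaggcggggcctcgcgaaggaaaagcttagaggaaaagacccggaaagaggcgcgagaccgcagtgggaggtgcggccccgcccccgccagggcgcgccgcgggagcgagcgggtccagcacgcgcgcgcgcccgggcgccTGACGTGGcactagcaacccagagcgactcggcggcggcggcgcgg
Sec23a, chr12:59011998-59012267, - strand: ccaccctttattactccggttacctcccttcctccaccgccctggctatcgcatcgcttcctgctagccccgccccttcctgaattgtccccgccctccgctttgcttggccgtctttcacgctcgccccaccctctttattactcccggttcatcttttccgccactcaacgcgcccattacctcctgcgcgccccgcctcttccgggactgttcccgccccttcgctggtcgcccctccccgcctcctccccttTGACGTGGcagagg
Copb1, chr7:114254661-114254930, - strand: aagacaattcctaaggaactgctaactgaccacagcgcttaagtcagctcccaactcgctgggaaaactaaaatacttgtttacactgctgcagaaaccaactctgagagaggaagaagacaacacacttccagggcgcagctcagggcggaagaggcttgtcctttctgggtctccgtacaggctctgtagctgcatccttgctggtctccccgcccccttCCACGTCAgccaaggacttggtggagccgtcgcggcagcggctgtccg
Copb2, chr9:98563481-98563750, + strand: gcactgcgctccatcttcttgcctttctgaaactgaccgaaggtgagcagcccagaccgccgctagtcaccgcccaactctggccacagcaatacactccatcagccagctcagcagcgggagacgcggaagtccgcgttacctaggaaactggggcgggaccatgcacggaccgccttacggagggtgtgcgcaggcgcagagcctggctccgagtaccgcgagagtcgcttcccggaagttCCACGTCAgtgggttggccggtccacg
The match began 26 bases before the start in Sec24d, 28 before it in Copb1, 7 before it in Copb2 and 7 after it in Sec23a. The ER stress response element, which is CCAAT and CCACG with 9 bases of any kind between them, stood in 0 of the 39 members' windows and in 0.137% of genes, and its second form, ATTGG and CCACG with 1 base of any kind between them, in 0 of the windows and 0.0444% of genes; both strands were read. A match describes the letters of a window and does not show that a factor binds there.

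Set side by side, the rescaled changes of the members ran in a like order in both populations, which come from separate libraries and separate tables. Across the 47 genes Pearson's r was 0.85 and Spearman's rho 0.83, and with the authors' values 0.84 and 0.82; across the 10446 genes tested in both tables r was 0.41 and rho 0.52 rescaled. These are descriptions across genes, which are not independent and share transcript length and base composition between populations, and no p is given. Rescaled, 27 members were called higher in both populations, 2 in CD93-negative cells alone (Copb1 and Sec11a), 9 in CD93-positive cells alone and 9 in neither. Of the 10446 genes tested in both tables, 7.33% were called higher in both, 9.94% in CD93-negative cells alone and 4.17% in CD93-positive cells alone. With the authors' values 1 member, Sec24d, was called higher in both, against 1.05% of those genes. The 9 called in neither were Sec62, Sec63, Srp14, Sec23a, Sec24b, Sec24c, Sec31a, Mcfd2 and Copa. Differences between the populations were not tested, because the tables were scaled separately.

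Each Tet2/Tet3-deficient library lay above each control library for 39 members and below for 0 in CD93-negative cells, where 31.5% of all tested genes lay above and 7.43% below. Rescaled, 31 members lay above and 4 below (Sec62, Sec63, Sec24b and Sec24c), against 21.4% and 33.3% of all tested genes. In CD93-positive cells 7 members lay above and 2 below (Sec63 and Sec24b), against 2.94% and 19.0%, and rescaled 40 lay above and 1 below (Sec24b), against 20.9% and 22.0%. In relation to the median change of all tested genes, 42 members were above it in CD93-negative cells and 43 in CD93-positive cells, under both scalings. Sec62, Sec63 and Sec24b were below it in both populations.

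**Figure D4:**
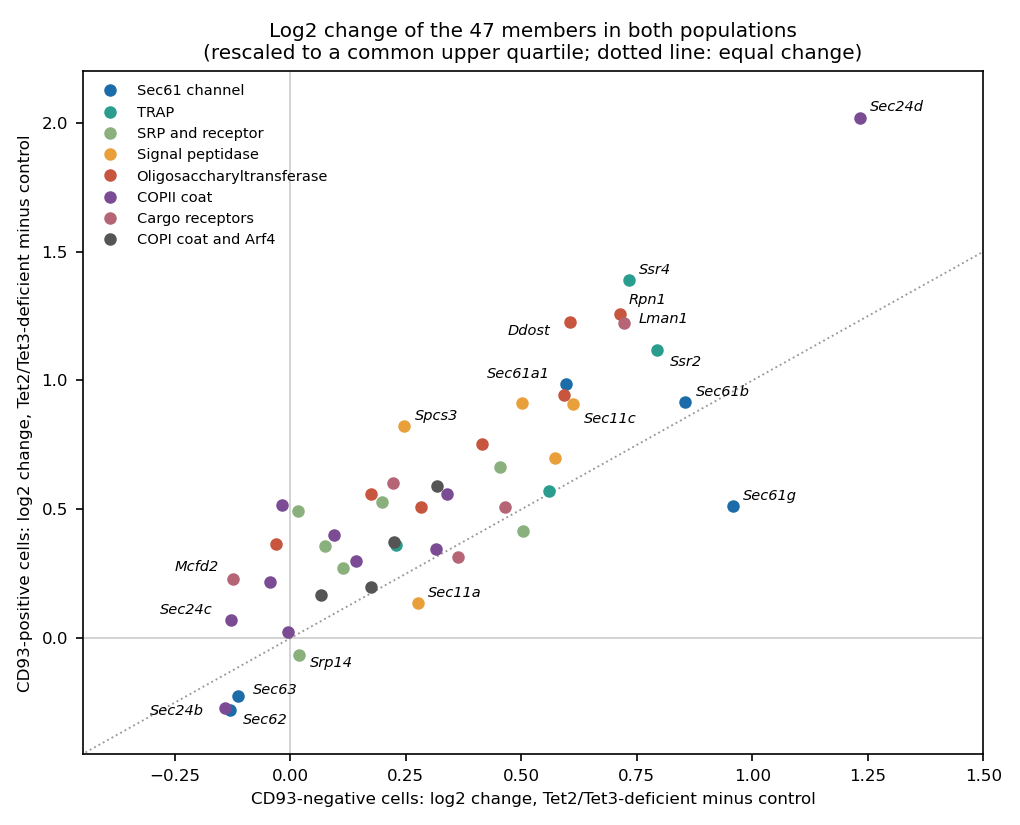
Rescaled log2 change, Tet2/Tet3-deficient minus control, of the 47 genes in CD93-negative cells (x axis) and CD93-positive cells (y axis), coloured by complex; the dotted line marks equal change. Sec24d lies farthest from the origin at 1.23 and 2.02, and Sec62, Sec63 and Sec24b lie below 0 on both axes, though none of these 3 passed the test.

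In control cells the members covered a wide range of levels. Sec11c averaged 86.7 FPKM in CD93-negative and 161 FPKM in CD93-positive control cells, above 95.1% and 96.3% of all tested genes. Dad1, Sec61b and Srp14 were the next 3 in CD93-negative control cells, at 78.1, 62.3 and 53.7 FPKM. From Sec11c to Srp14, the range of each over the 3 libraries overlapped that of its neighbour in this order. Sec24d was the lowest member in both control groups, at 1.87 and 2.54 FPKM, above 10.6% and 14.0% of tested genes. In Tet2/Tet3-deficient CD93-negative cells Sec24d, at 6.59 FPKM, ranked above Sec24a, at 6.06 FPKM, and Sec23a, at 5.99 FPKM, with ranges that overlapped.

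The pathway around the members was read from 121 related genes for other translocation factors, the ER membrane complex, glycan assembly, glycan trimming, ER exit and COPI retrieval, of which 114 were tested. In CD93-negative cells 33 (28.9%) were higher and 0 lower in limma, against 18.7% and 2.79% of all tested genes. At an unadjusted p of 0.05, 57 were higher and 0 lower, against 27.6% and 5.61% of all tested genes. The median log2 change was 0.30. Rescaled, 31 (27.2%) were higher and 8 lower, against 17.1% and 23.8% of all tested genes, with a median of 0.09. In CD93-positive cells 0 were called in either direction, against 1.67% of all tested genes higher and 1.54% lower. At an unadjusted p of 0.05, 5 were higher and 0 lower, against 3.88% and 8.02% of all tested genes. Rescaled, 42 (36.8%) were higher and 1 lower, against 11.4% and 9.34% of all tested genes, with a median of 0.18. Tram2, a translocon-associated protein, was at 14.7, 13.9 and 12.1 FPKM in Tet2/Tet3-deficient CD93-negative libraries, against 4.51, 6.12 and 4.80 FPKM in control libraries (log2 change 1.25, adjusted p = 7.67e-05), but its rescaled change in CD93-positive cells did not pass (0.57, adjusted p = 0.141). Ostc and Krtcap2, accessory subunits of the oligosaccharyltransferase that works with Stt3a, changed by 0.71 (adjusted p = 0.00504) and 0.66 (adjusted p = 0.00675) in CD93-negative cells, and by 0.62 (adjusted p = 0.0171) and 0.91 (adjusted p = 0.00157) rescaled in CD93-positive cells.

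Glycan trimming and the lectin cycle, by which glycosylated proteins are held until folded, had 5 of 9 tested genes higher in CD93-negative cells and 6 of 9 in rescaled CD93-positive cells. The shares of all tested genes were 18.7% and 11.4%. In CD93-negative cells 5 of 27 ER exit genes were higher, near that share, and 7 of 29 glycan assembly genes. Other translocation factors had 5 of 14 higher, the ER membrane complex list 4 of 14 and COPI retrieval 7 of 21. Rescaled, ER exit had 4 higher and 2 lower and glycan assembly 5 and 4, against 17.1% and 23.8% of all tested genes. In rescaled CD93-positive cells 12, 10, 5, 3 and 6 genes of these lists were higher, in the same order. Calr, the soluble lectin chaperone, was at 357, 343 and 387 FPKM in Tet2/Tet3-deficient CD93-negative libraries, against 167, 224 and 200.4 FPKM in control libraries (log2 change 0.88, adjusted p = 0.000981). Its rescaled change in CD93-positive cells was 1.14 (adjusted p = 0.00117). Canx, its membrane-bound counterpart, changed by 0.50 (adjusted p = 0.0178) and 0.36 rescaled (adjusted p = 0.0111), and Prkcsh, the regulatory subunit of glucosidase II, by 0.72 (adjusted p = 0.00992) and 0.49 rescaled (adjusted p = 0.00442). Gfpt1, which starts the supply of amino sugars, changed by 0.64 (adjusted p = 0.00393) in CD93-negative cells and by 1.13 rescaled (adjusted p = 0.00186) in CD93-positive cells.

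Genes of the Golgi, which receives the exported cargo, had a median change in CD93-negative cells close to that of all tested genes. Of 20 tested Golgi genes, 4 (20%) were higher and 0 lower in CD93-negative cells, close to the 18.7% of all tested genes that were higher. Rescaled, 4 were higher and 8 lower, against 17.1% and 23.8% of all tested genes. Their median log2 change was 0.10, against 0.11 for all tested genes, and -0.10 rescaled, against -0.08. In CD93-positive cells 0 were called in limma and 0 passed an unadjusted p of 0.05. Rescaled, 2 were higher and 1 lower, against 11.4% and 9.34% of all tested genes. The members' sum ran from 1935 to 2108 FPKM in Tet2/Tet3-deficient and 1127 to 1456 FPKM in control CD93-negative libraries, while that of the Golgi genes ran from 541 to 572 FPKM in deficient and 394 to 533 FPKM in control libraries.

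Of the transcription factors known to drive secretory genes, Xbp1 was at 81.6, 82.6 and 89.3 FPKM in Tet2/Tet3-deficient CD93-negative libraries, against 29.5, 41.3 and 36.4 FPKM in control libraries (log2 change 1.23, SE 0.142, adjusted p = 7.56e-05). In CD93-positive cells it was at 205, 163 and 106 FPKM in deficient libraries, against 38.1, 33.3 and 51.4 FPKM in control libraries (log2 change 1.90, SE 0.410, adjusted p = 0.000268). Creb3l2, a factor related to Atf6 that acts on ER export genes, was at 4.98, 5.75 and 5.77 FPKM in deficient and 1.78, 3.24 and 2.94 FPKM in control CD93-negative cells (log2 change 0.85, adjusted p = 0.00383), and changed by 0.94 rescaled in CD93-positive cells (adjusted p = 0.00604). Atf6 changed by 0.63 in CD93-negative cells (adjusted p = 0.00563) and by 0.16 rescaled in CD93-positive cells (adjusted p = 0.174). Prdm1, a factor of plasma cell differentiation, was at 3.37, 3.08 and 3.11 FPKM in deficient and 0.481, 0.542 and 0.874 FPKM in control CD93-negative cells (log2 change 1.37, adjusted p = 6.33e-05), and at 5.65, 3.98 and 2.54 FPKM in deficient and 0.779, 0.741 and 0.796 FPKM in control CD93-positive cells (log2 change 1.47, adjusted p = 3.95e-06). Irf4, another factor of plasma cell differentiation, was at 37.7, 36.0 and 39.4 FPKM in deficient and 30.4, 38.2 and 39.7 FPKM in control CD93-negative cells (log2 change 0.07, adjusted p = 0.775). In CD93-positive cells Irf4 was at 69.6, 62.4 and 35.2 FPKM in deficient and 75.9, 68.5 and 87.0 FPKM in control libraries, and was lower rescaled, by a log2 change of -0.27 (adjusted p = 0.0294).

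Plasma cell markers, a list that also holds Xbp1 and Prdm1, were higher in the same libraries as the members. In CD93-negative cells 9 of 11 tested markers were higher, against 18.7% of all tested genes. The summed level of the markers was 667 to 741 FPKM in Tet2/Tet3-deficient and 198 to 253 FPKM in control libraries. In CD93-positive cells 8 of 11 were higher, against 1.67% of all tested genes, with sums of 1419 to 2564 FPKM in deficient and 380 to 561 FPKM in control libraries. Rescaled, 8 were higher and 1, Irf4, was lower, against 11.4% and 9.34% of all tested genes. Igj, the joining chain of secreted antibody, was at 192, 212 and 220.5 FPKM in Tet2/Tet3-deficient CD93-negative libraries, against 4.49, 9.78 and 9.09 FPKM in control libraries, and at 1148, 933 and 688 FPKM in deficient and 36.6, 27.0 and 40.6 FPKM in control CD93-positive libraries. Sdc1, a surface marker of plasma cells, did not pass: it was at 5.54, 4.59 and 6.85 FPKM in deficient and 3.47, 5.73 and 4.90 FPKM in control CD93-negative cells, and at 22.1, 17.9 and 10.6 FPKM in deficient and 17.8, 16.7 and 19.6 FPKM in control CD93-positive cells. The part of these markers in the changes of the members was not tested.

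Of 12 markers of B cell identity, 3 were lower in CD93-negative cells and 8 were lower rescaled, against 2.79% and 23.8% of all tested genes. In CD93-positive cells 3 were lower and 7 were lower rescaled, against 1.54% and 9.34% of all tested genes. The sums there were 1727 to 3547 FPKM in deficient and 3664 to 4771 FPKM in control libraries. The sums in CD93-negative cells were 3588 to 3753 FPKM in deficient and 3471 to 4310 FPKM in control libraries. Among those lower in both populations were the complement receptor Cr2 and the IgE receptor Fcer2a, which encode CD21 and CD23. Cr2 changed by -1.25 (adjusted p = 2.97e-05) in CD93-negative and by -1.39 (adjusted p = 0.000236) in CD93-positive cells. The part of these genes in the changes of the members was not tested.

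Some markers of other cells also differed between groups. The counts below stand against these shares of all tested genes. In CD93-negative cells 18.7% were higher and 2.79% lower, and rescaled 17.1% and 23.8%. In CD93-positive cells 1.67% were higher and 1.54% lower, and rescaled 11.4% and 9.34%. At an unadjusted p of 0.05, 27.6% were higher in CD93-negative cells. In CD93-negative libraries T cell markers summed to 151 to 155 FPKM in Tet2/Tet3-deficient and 123 to 166 FPKM in control cells, with 6 of 13 tested genes higher, or 5 higher and 1 lower rescaled, and red cell markers to 171 to 199 FPKM in deficient and 43.1 to 60.6 FPKM in control libraries, with 4 of 6 higher, or 2 rescaled. In CD93-positive libraries red cell markers summed to 3318 to 15708 FPKM in Tet2/Tet3-deficient and 15092 to 64410 FPKM in control cells, with 7 of 9 lower, or 0 rescaled. Their median log2 change was -1.92, and still -1.67 rescaled, so the calls were lost without a loss of the difference. Neutrophil markers there summed to 471 to 1410 FPKM in deficient and 1630 to 2263 FPKM in control libraries, with 2 of 10 lower, or 5 rescaled. Macrophage markers summed to 24.5 to 27.2 FPKM in deficient and 21.2 to 26.9 FPKM in control CD93-negative and 117 to 301 FPKM in deficient and 177 to 291 FPKM in control CD93-positive libraries, with 2 of 4 and 0 of 9 higher under both scalings. Natural killer markers summed to 83.9 to 95.1 FPKM in deficient and 51.2 to 102 FPKM in control CD93-negative and 28.3 to 84.8 FPKM in deficient and 20.3 to 40.8 FPKM in control CD93-positive libraries, with 1 of 10 and 2 of 8 higher, or 1 and 4 rescaled. Neutrophil markers of CD93-negative libraries summed to 9.78 to 20.01 FPKM in deficient and 9.42 to 16.5 FPKM in control libraries, with 0 of 5 called in limma, 1 higher at an unadjusted p of 0.05, 2 lower rescaled, and Retnlg listed at 0 in all 6 libraries. The part of these cells in the changes of the members was not tested.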

How the data were processed

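Strand-specific libraries had been made from total RNA of spleen B cells, per the labels' protocols. The authors deposited FPKM values, and the tools named are Cufflinks 2.1.1, TopHat2 2.0.8 and Bowtie2 2.1.0, with the build mm9, per the submitters' processing notes. The annotation and the handling of reads shared by several genes are not given in the sources used here, so close paralogs may share reads. Since FPKM keeps no counts, library depth is unknown and no detection floor is given. Of the second table, 6 further value columns repeated the used columns cell for cell and were not used.

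Log2(FPKM + 1) values of genes that reached 1 FPKM in 3 or more libraries were compared, Tet2/Tet3-deficient against control, by a two-sided limma test (3.58.1, R 4.3.3; lmFit, then eBayes with its trend option) without covariates, with Benjamini-Hochberg adjustment over all tested genes and a threshold of 0.05. A log2 change on that scale understates changes of low genes. The test draws each gene's spread toward that of genes of like level, so an adjusted p does not rest on the gene's own spread alone. The tables were scaled separately, so tests ran within a table. The script was tested on simulated data. Alternatives left out each library in turn, blocked on the replicate number, weighted libraries by quality, dropped the trend, rescaled by upper quartile or quantiles, dropped the filter or set it at 5 FPKM, or set the pseudocount to 0.1 or 5. Sex as a covariate, and the CD93-positive fits that combine it or the loss of deficient replicate 3 with rescaling, were added after the data were seen. Members, gene lists and tests were chosen with earlier results of these data known. Of the related lists, up to 3 genes with a call, no overlap of the groups and the largest change were eligible to be named, and Xbp1, Atf6, Prdm1, Igj, Tet2, Tet3, Cd93 and set markers always; Retnlg was named after its values were seen. Promoter windows are from RefSeq, build GRCm38.p6, and the matching genes were found by symbol.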

Additional observations from a re-analysis of the deposited data

Results flagged for a closer look

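B4galt1, which adds galactose to glycans in the Golgi, is a gene of the Golgi list whose values stood apart in opposite directions in the populations. It was at 31.6, 32.3 and 33.3 FPKM in Tet2/Tet3-deficient and 15.5, 19.6 and 18.2 FPKM in control CD93-negative libraries, a log2 change of 0.84 (adjusted p = 0.000672). In CD93-positive cells it was at 42.2, 42.1 and 20.2 FPKM in Tet2/Tet3-deficient and 46.9, 45.8 and 58.2 FPKM in control libraries, a log2 change of -0.58 (adjusted p = 0.592), and -0.34 rescaled (adjusted p = 0.0297). Every deficient library lay above every control library in CD93-negative cells and below every one in CD93-positive cells. Of all tested genes, 31.5% lay above in this way in CD93-negative cells and 19.0% lay below in CD93-positive cells. In CD93-positive cells 3 deficient libraries and 1 control library were female, so the groups differed in sex as well. The difference between the populations was not tested.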

How the results depend on the processing

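No member was called lower under any alternative run. Of the 29 members called higher in CD93-negative cells, 17 were called under each of the 15 alternatives, a left-out library included, and the number higher ran from 19 to 32 with a library left out (members lower 0 to 0). In CD93-positive cells the number of members higher, 1, became 0 without a filter, 36 with upper quartile rescaling and 36 with quantile normalization. It became 16 with quality weights, 33 with rescaling and deficient replicate 3 left out, and 1 to 18 with a library left out (lower 0 to 0). Fits with sex as a covariate called fewer members higher under both scalings. They rest on 1 female control library, so their counts are not given. Related genes higher in CD93-negative cells became 19 without a filter and 14 with quality weights, and those lower became 8 with rescaling and 6 with quantile normalization; with a library left out they ran from 15 to 51 and from 0 to 1. Related genes higher in CD93-positive cells became 1 with a pseudocount of 5, 42 with rescaling, 41 with quantile normalization and 16 with quality weights. They became 32 with rescaling and deficient replicate 3 left out, and 1 was lower with rescaling. With a library left out they ran from 0 to 19 and from 0 to 0. Of all tested genes in CD93-negative cells, 2045 higher became 1361 with quality weights, and 306 lower became 184 without a filter, 2609 with rescaling and 2314 with quantile normalization; with a library left out they ran from 1180 to 2630 and from 188 to 1109. Of all tested genes in CD93-positive cells, 188 higher became 11 without a filter, 73 with a filter of 5 FPKM, 1280 with rescaling, 1103 with quantile normalization, 106 without a trend, 551 with quality weights, 80 with sex, 398 with sex and rescaling and 899 with rescaling and deficient replicate 3 left out. Those lower, 173, became 5, 95, 1051 and 1127 in the first 4 of these settings, 82 without a trend, 99 with the replicate block, 47 with sex and 648 with rescaling and deficient replicate 3 left out; with a library left out they ran from 80 to 487 higher and from 42 to 212 lower. Gorasp2 in CD93-positive cells was reversed, from -0.00 to 0.24 with rescaling (adjusted p = 0.0465). Without a call on either side, up to 9 members in CD93-negative and 8 in CD93-positive cells changed sign in 1 setting. The cause of these differences was not tested. Deviations of same-numbered libraries correlated at 0.02, -0.11 and -0.09 in CD93-negative and 0.17, -0.11 and -0.14 in CD93-positive cells. Those of libraries with other numbers ran from -0.04 to 0.12 and from -0.31 to 0.34. With 3 libraries per group this check cannot tell whether replicate numbers pair the libraries. With the number as a block, members higher were 30 and 1, and all tested genes higher or lower were 2435 and 439 in CD93-negative and 138 and 99 in CD93-positive cells. Unknown depth limits the low members, such as Sec24d in control cells.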
